A study of Mus musculus with 6 samples.

Results

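Chemokine ligands are small secreted proteins that draw leukocytes into a tissue, and their transcripts were followed here in brown adipose tissue (BAT) of KRAP-deficient mice. The set was chosen by gene symbol in the annotation of an Affymetrix mouse array, as every Ccl, Cxcl, Xcl or Cx3cl gene followed by a digit, and held 33 genes of the 18193 that a probe set names alone. Each gene was read from its brightest probe set over all 6 arrays. Of the 33, 19 had a mean signal above the median of their array and entered the test, and 14 were dimmer and are given as values only.

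The study compared 3 KRAP-deficient (KO) animals with 3 wild-type (WT) littermates, numbered as 3 pairs, with 1 array for each animal. KRAP, now named Itprid2, is an actin-associated protein, and brown fat uses fuel for heat production. In KO mice a neomycin cassette replaced part of the KRAP gene, in a line made from 129/SV DNA and backcrossed to C57BL6/J. All animals were 32 weeks old and ate normal chow. The KRAP gene lies on chromosome 2, and 0 of the 33 ligand genes do.

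Chemokines fall into families by the spacing of their first cysteines, CC, CXC, CX3C and C, and act on G protein-coupled receptors of the target cell. CXCL9, CXCL10 and CXCL11 are induced by interferons and recruit activated T cells and natural killer cells through CXCR3. Several CC ligands near CCL2 attract monocytes or eosinophils, CXCL13 attracts B cells through CXCR5, and CXCL12 and CXCL14 are made constitutively by stroma. In fat, such signals come from macrophages, stromal and endothelial cells and adipocytes. As these were whole-tissue RNAs, fewer cells of a type and less RNA per cell cannot be told apart.

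Signals are given relative to the array median, which lay between 16.5 and 20.4 intensity units. The 3 values of a group are listed in the order of pairs 1 to 3. Log2 differences are KO minus WT, fitted with limma with the littermate pair as a block. A fold is 2 raised to that difference, and values under 0.25 were set to 0.25 first, which understates the change of dim genes. Over all 22356 tested probe sets 0 passed an adjusted p of 0.05 (0.0%), with a smallest adjusted p of 0.117, while 1911 had an unadjusted p under 0.05. The KRAP probe set read 47.0, 35.1 and 41.4 in the KO animals, against 55.3, 56.6 and 42.2 in their WT littermates, and whether it lies in the deleted part is unknown, so it could not check the labels. The 8 brown adipocyte markers were all tested, with summed signals of 2210 to 2939 in KO and 2237 to 2913 in WT. In all 3 pairs 0 of them were lower and 0 higher. Fabp4, Cidea, Adipoq and Ucp1 were far brighter than the others. Both animals of pair 1 stood highest for Ppargc1a, at 111, 12.2 and 9.88 in KO and 72.7, 10.6 and 10.8 in WT. The same held for Dio2, at 101, 10.8 and 15.3 in KO and 44.3, 11.2 and 4.05 in WT. The part of this in the results below was not tested. The array of WT 2 stood apart, with an actin 3' over 5' signal ratio of 3.80 against 1.91 to 2.58 on the other arrays, so values without pair 2 are given beside the results. Skeletal muscle markers summed to 31.8, 533 and 14.9 in the KO animals and to 69.6, 42.6 and 202 in their WT littermates, and their part in the results below was not tested.

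The 19 tested ligands did not share a direction. The CXCR3 ligands Cxcl10 and Cxcl9 read lower in KO in every pair, and Cxcl13, Ccl8, Ccl11, Ccl6 and Ccl9 read higher. None of the 19 passed the adjusted test, and 5 had an unadjusted p under 0.05. Of these, Cxcl9 and Cxcl10 were lower (2 of 19, against 5.14% of all tested probe sets) and Cxcl13, Ccl8 and Ccl11 higher (3 of 19, against 3.41%). The fitted differences were below 0 for 10 ligands and above 0 for 9, with a median of -0.04 beside -0.07 over all 11140 tested genes. The median size of the difference, without its sign, was 0.38 for the ligands and 0.18 for all tested genes. The ligands and all genes were not matched for signal or spread, and this contrast was not tested.

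**Figure D1:**
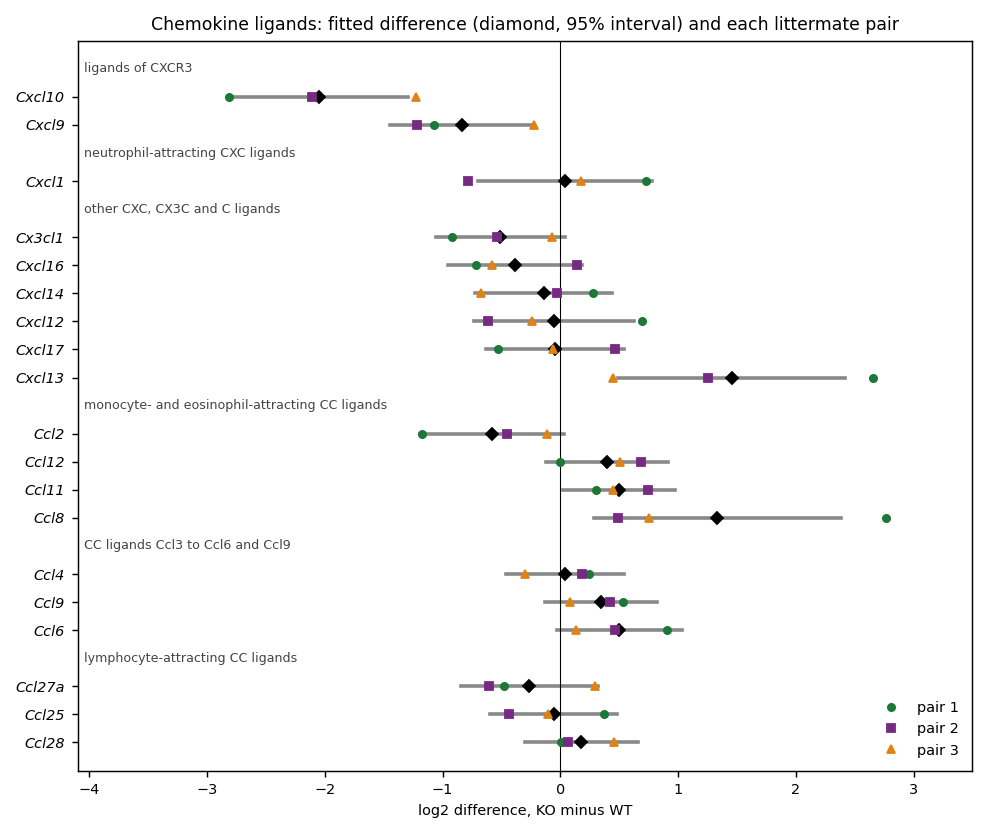
Log2 differences, KO minus WT, of the 19 tested chemokine ligands, grouped by role. Diamonds are fitted values, grey lines their 95% confidence intervals, and coloured points the 3 littermate pairs. Cxcl10 lies lowest at -2.05 and Cxcl13 highest at 1.45, and pair 1 has the most extreme point for both.

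In 4 ligands the KO signal was lower in all 3 pairs, namely Cxcl10, Cxcl9, Cx3cl1 and Ccl2 (21.1% of the 19, against 18.4% of all tested probe sets). In 6 it was higher in all 3 pairs, namely Cxcl13, Ccl8, Ccl11, Ccl6, Ccl9 and Ccl28 (31.6%, against 12.4%). The first share lay near the background and the second above it, and neither was tested. At the 1.5-fold filter named in the methods, 1 ligand was lower in all 3 pairs, Cxcl10 (0.819% of all tested probe sets), and 0 were higher (0.555%). The KO and WT signals did not overlap for Cxcl10 and Cx3cl1, which were lower (2 of 19, against 7.16%), nor for Cxcl13, Ccl8 and Ccl11, which were higher (3 of 19, against 4.59%). The remaining 14 overlapped.

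The 250 bases before the start sites of 4 ligands are shown, since Cxcl10 and Cxcl9 are the 2 with the largest fitted differences below 0 and Cxcl13 and Ccl8 the 2 with the largest above 0. The sequences are from RefSeq on GRCm38.p6, read 5′ to 3′ on the strand of the gene and ending just before the start site. Cxcl10 is at chr5:92348890-92349139 and Cxcl9 at chr5:92328080-92328329, both on the minus strand, while Cxcl13 is at chr5:95956689-95956938 and Ccl8 at chr11:82114935-82115184, both on the plus strand. Capitals mark matches to an interferon-stimulated response element (GAAA, any 2 bases, GAAA) or a TATA box (TATAAA), searched on both strands.
Cxcl10: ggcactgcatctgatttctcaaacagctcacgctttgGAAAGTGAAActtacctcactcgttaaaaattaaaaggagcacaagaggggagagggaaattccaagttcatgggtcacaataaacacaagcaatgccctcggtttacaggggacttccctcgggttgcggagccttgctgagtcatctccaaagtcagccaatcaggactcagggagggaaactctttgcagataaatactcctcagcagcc
Cxcl9: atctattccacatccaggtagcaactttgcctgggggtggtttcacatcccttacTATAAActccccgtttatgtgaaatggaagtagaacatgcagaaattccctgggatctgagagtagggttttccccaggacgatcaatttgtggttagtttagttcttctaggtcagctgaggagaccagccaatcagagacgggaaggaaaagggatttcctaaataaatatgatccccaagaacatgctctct
Cxcl13: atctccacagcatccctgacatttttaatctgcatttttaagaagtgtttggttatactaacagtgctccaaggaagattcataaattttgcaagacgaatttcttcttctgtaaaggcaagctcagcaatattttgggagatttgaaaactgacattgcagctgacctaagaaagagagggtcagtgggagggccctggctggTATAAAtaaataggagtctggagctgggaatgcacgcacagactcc
Ccl8: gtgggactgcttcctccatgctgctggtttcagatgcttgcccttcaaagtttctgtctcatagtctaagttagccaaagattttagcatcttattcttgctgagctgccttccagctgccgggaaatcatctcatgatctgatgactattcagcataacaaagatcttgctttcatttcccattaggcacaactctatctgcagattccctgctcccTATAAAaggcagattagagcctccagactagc

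In the Cxcl10 window the interferon element stands 213 to 204 bases before the start site. This motif was found in 2.98% of all 32851 promoter windows and, among the 14 tested ligands with a window, also in Cxcl14. TATAAA, found in 12.4% of all windows, stands 195 to 190 bases before the start in Cxcl9, 46 to 41 in Cxcl13 and 32 to 27 in Ccl8. Among the 14 tested ligands with a window, it was also matched in Ccl9, Ccl12, Ccl25 and Cx3cl1. A gamma-activated site (TTCNNNGAA, 7.02% of all windows) was matched in Cxcl14. An NF-kB site in a narrow form (GGG, any 2 bases, TTTCC, 1.41%) was matched in Cxcl1 and Ccl9. Neither pattern was matched in the 4 windows above, and looser forms of these sites were not searched, so such sites may be present there. In the search, motifs did not overlap each other in the windows shown, and a match is only a run of letters.

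Cxcl10, the interferon-induced ligand of CXCR3 that was first known as IP-10, read 0.619, 0.468 and 1.05 in the KO animals, against 4.36, 2.02 and 2.46 in their WT littermates. Each KO signal lay below each WT signal. The means were 0.713 ± 0.303 in KO and 2.95 ± 1.24 in WT (SD, n = 3 each). The fitted fold was 4.15-fold lower in KO, a log2 difference of -2.05 (95% interval -2.81 to -1.30, adjusted p = 0.351). The KO over WT ratios were 0.142, 0.232 and 0.427 in pairs 1 to 3, and the difference was -2.02 without pair 2. Cxcl10 passed the test without pair 1, at -1.67 (adjusted p = 0.00672), and when the prior variance followed the mean signal robustly (adjusted p = 0.00390). In the other alternatives its adjusted p ran from 0.153 to 0.788.

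Cxcl9, its neighbour on chromosome 5 and a ligand induced mainly by interferon-gamma, read 10.1, 6.70 and 7.76 in the KO animals, against 21.4, 15.6 and 9.03 in their WT littermates. The littermates differed in one direction, but the highest KO signal, of KO 1, exceeded the lowest WT signal, of WT 3. Its mean was 8.20 ± 1.76 in KO and 15.3 ± 6.17 in WT (SD, n = 3 each). The fitted fold was 1.79-fold lower, a log2 difference of -0.84 (95% interval -1.45 to -0.23, adjusted p = 0.481; -0.65 without pair 2). A dimmer probe set of Cxcl9 gave -0.93 (95% interval -1.39 to -0.47, adjusted p = 0.396) and was lower in 3 of 3 pairs. With the prior variance following the mean signal, the brighter one had an adjusted p of 0.0288. Cxcl11, the third ligand of the receptor, was too dim to test, at 0.751, 0.501 and 1.36 in KO mice, with 0.499, 0.486 and 0.952 in the WT mice of the same pairs. It was higher in KO in each pair, unlike Cxcl9 and Cxcl10, and all but 1 of its signals lay below the array median.

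**Figure D2:**
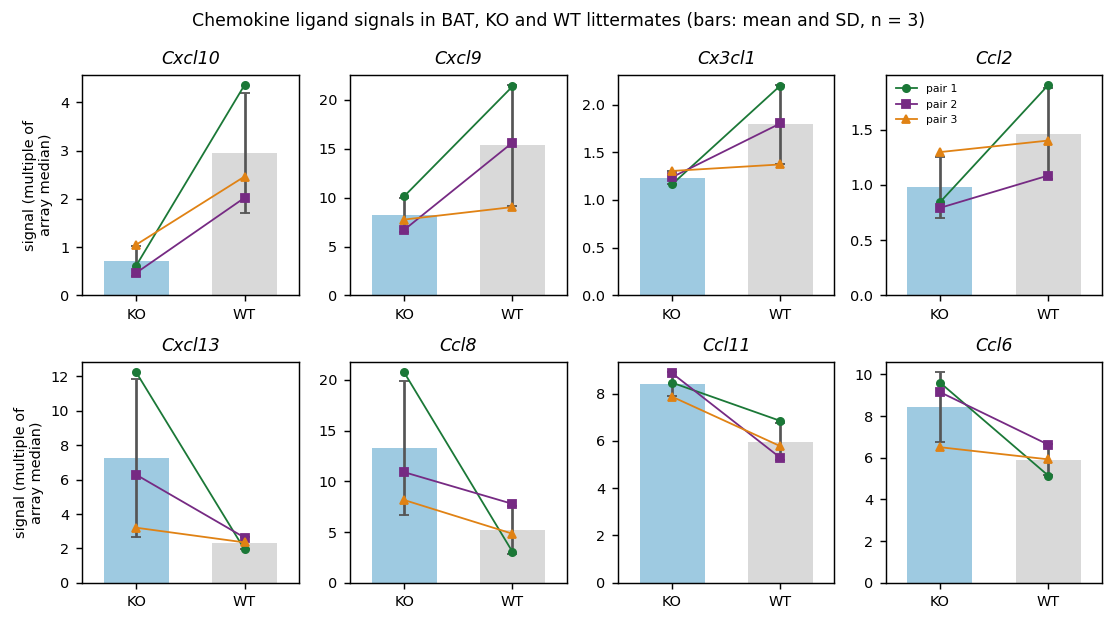
Signals of 8 chemokine ligands as multiples of the array median, on linear axes that start at 0, with KO left of WT. Lines join littermates, and bars are means with SD (n = 3). Cxcl10, Cxcl9, Cx3cl1 and Ccl2 lie lower in KO in every pair, and Cxcl13, Ccl8, Ccl11 and Ccl6 higher, with KO 1 far above the other KO animals for Cxcl13 and Ccl8.

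Cxcl13, which guides B cells through CXCR5 and is known from lymphoid stroma and from macrophages of body cavities, read 12.2, 6.28 and 3.20 in the KO animals, against 1.94, 2.63 and 2.35 in their WT littermates. Every KO signal was above every WT signal, but the KO animals spread widely and the WT animals did not. The means were 7.24 ± 4.59 in KO and 2.31 ± 0.348 in WT (SD, n = 3 each). The fitted fold was 2.74-fold higher in KO, a log2 difference of 1.45 (95% interval 0.49 to 2.42, adjusted p = 0.442). The ratios were 6.31, 2.39 and 1.36 in pairs 1 to 3, and the difference was 0.85 without pair 1 and 1.55 without pair 2. Its dimmer probe set gave 0.98 (adjusted p = 0.467) and was higher in 3 of 3 pairs.

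Among the tested ligands of the Ccl2 cluster on chromosome 11, Ccl8, also known as MCP-2, stood highest in difference. It read 20.7, 10.9 and 8.15 in the KO animals, against 3.06, 7.78 and 4.83 in their WT littermates, with no overlap of the groups. The means were 13.3 ± 6.62 in KO and 5.22 ± 2.38 in WT (SD, n = 3 each). The fitted fold was 2.52-fold higher, a log2 difference of 1.33 (95% interval 0.28 to 2.39, adjusted p = 0.496). The ratio was 6.79 in pair 1 against 1.40 and 1.69 in pairs 2 and 3, and without pair 1 the difference was 0.62, and 1.76 without pair 2.

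Ccl11, or eotaxin, draws eosinophils through CCR3. It read 8.46, 8.86 and 7.87 in the KO animals, against 6.85, 5.29 and 5.78 in their WT littermates. The groups did not overlap and the KO animals lay close together. The log2 difference was 0.50 (95% interval 0.02 to 0.98, adjusted p = 0.569), 1.41-fold higher, and 0.38 without pair 2. Ccl12, a mouse monocyte attractant that lies between Ccl11 and Ccl8 on chromosome 11, read 0.121, 1.86 and 2.09 in KO mice, with 0.0763, 1.15 and 1.47 in the WT mice of the same pairs. Pair 1 was below the floor in both animals, the other pairs were higher in KO, and the log2 difference was 0.40 (adjusted p = 0.667; 0.25 without pair 2 and 0.60 without pair 1).

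Ccl2, the main monocyte attractant, lies in the same cluster and read the other way. Its signals were 0.843, 0.792 and 1.30 in the KO animals, against 1.90, 1.08 and 1.40 in their WT littermates. The KO animal was lower in each pair, while the groups overlapped. The log2 difference was -0.58 (95% interval -1.19 to 0.03, adjusted p = 0.604), -0.28 without pair 1 and -0.64 without pair 2. Ccl7 and the eotaxin Ccl24 were too dim to test.

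Among Ccl3 to Ccl6 and Ccl9, neighbours on chromosome 11, the myeloid ligands Ccl6 and Ccl9 read higher in KO in each pair. Ccl6 read 9.61, 9.15 and 6.51 in the KO animals, against 5.14, 6.63 and 5.92 in their WT littermates. The groups overlapped only through KO 3 and WT 2. Its log2 difference was 0.50 (95% interval -0.03 to 1.03, adjusted p = 0.610), 0.30 without pair 1 and 0.52 without pair 2, and a dimmer probe set gave 0.29, higher in 2 of 3 pairs.

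Ccl9 read 7.75, 6.68 and 4.62 in the KO animals, against 5.37, 4.98 and 4.35 in their WT littermates. KO 3 lay among the WT animals, and the log2 difference was 0.35 (95% interval -0.13 to 0.82, adjusted p = 0.684; 0.31 without pair 2). Its dimmer probe set gave 0.28, or 0.11 without pair 2, higher in 2 of 3 pairs. Ccl4, an attractant of monocytes and T cells, read 1.62, 1.28 and 1.61 in KO mice, with 1.37, 1.13 and 1.98 in the WT mice of the same pairs, with a log2 difference of 0.04 (95% interval -0.46 to 0.54, adjusted p = 0.978) that was -0.03 without pair 2. The other 2 of the group, Ccl3 and Ccl5, were too dim to test. Ccl5, a T cell attractant, read 0.0533, 0.147 and 0.344 in the KO animals, against 0.876, 0.241 and 0.974 in their WT littermates.

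Some ligands are anchored in the cell membrane. Cx3cl1, or fractalkine, which is anchored on endothelium and binds CX3CR1, read 1.16, 1.24 and 1.30 in the KO animals, against 2.20, 1.80 and 1.37 in their WT littermates. Each KO signal lay below each WT signal, narrowly so in pair 3. The log2 difference was -0.51 (95% interval -1.06 to 0.04, adjusted p = 0.613), -0.31 without pair 1 and -0.50 without pair 2. Other Cx3cl1 probe sets were too dim to test. The brightest of them, at a mean of 0.438, overlapped, with log2 ratios of -0.44, 1.07 and -1.68 in pairs 1 to 3. Cxcl16, the other ligand with a membrane stalk, which binds CXCR6, read 2.23, 2.02 and 2.20 in KO mice, with 3.66, 1.84 and 3.29 in the WT mice of the same pairs. It was lower in pairs 1 and 3 and higher in pair 2, with a log2 difference of -0.38 (95% interval -0.95 to 0.18, adjusted p = 0.700; -0.65 without pair 2).

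Cxcl12, the constitutive stromal ligand of CXCR4, read 17.5, 11.5 and 10.0 in the KO animals, against 10.8, 17.5 and 11.8 in their WT littermates. The pairs disagreed, with ratios of 1.61, 0.654 and 0.846. The fitted difference was -0.05 (95% interval -0.73 to 0.63, adjusted p = 0.979), it was 0.02 after quantile normalization and 0.23 without pair 2, and a second probe set gave -0.02. Cxcl14, another constitutive ligand, read 8.75, 9.48 and 6.16 in KO mice, with 7.20, 9.65 and 9.85 in the WT mice of the same pairs. Its difference was -0.14 (95% interval -0.72 to 0.44, adjusted p = 0.918), -0.20 without pair 2, and a dimmer probe set gave -0.41, or -0.18 without pair 2. Cxcl17, a mucosal ligand, read 1.94, 1.79 and 1.95 in the KO animals, against 2.80, 1.29 and 2.04 in their WT littermates, a difference of -0.04 (95% interval -0.63 to 0.54, adjusted p = 0.981), and -0.30 without pair 2. Intervals of this width leave room for differences of over 0.5 either way in Cxcl12 and Cxcl17.

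Of the 5 neutrophil-attracting ligands, which act through CXCR2, only Cxcl1 was tested, and Cxcl2, Cxcl3, Cxcl5 and Cxcl15 were too dim. Cxcl1 read 5.48, 3.07 and 4.64 in the KO animals, against 3.31, 5.29 and 4.11 in their WT littermates, with a log2 difference of 0.04 (95% interval -0.70 to 0.77, adjusted p = 0.987; 0.45 without pair 2). The groups overlapped fully, and a dimmer probe set gave 0.26, higher in 3 of 3 pairs. Both carry suffixes that the array maker uses for probes that can match more than 1 transcript. Another Cxcl1 probe set, without such a suffix, had a mean signal of 0.896 and was too dim to test. Its log2 ratios were 0.02, -0.59 and 0.17 in pairs 1 to 3.

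Of the 7 CC ligands of lymphocytes, 3 were tested. Ccl28, a mucosal ligand, read 1.57, 1.81 and 1.66 in the KO animals, against 1.56, 1.72 and 1.21 in their WT littermates, higher in each pair, by a ratio of only 1.005 in pair 1. Its log2 difference was 0.18 (95% interval -0.30 to 0.66, adjusted p = 0.854; 0.23 without pair 2). Other Ccl28 probe sets were too dim to test, and the brighter of them, at a mean of 0.646, was lower in 2 of 3 pairs. Ccl27a, a skin ligand of CCR10, read 7.12, 5.87 and 8.75 in KO mice, with 9.90, 8.96 and 7.12 in the WT mice of the same pairs, a difference of -0.26 (95% interval -0.84 to 0.32, adjusted p = 0.816; -0.09 without pair 2). Near-identical copies of Ccl27a exist in the mouse, so this probe set may read several genes. Ccl25, the gut ligand of CCR9, read 2.46, 1.71 and 2.09 in the KO animals, against 1.91, 2.31 and 2.25 in their WT littermates, a difference of -0.06 (95% interval -0.60 to 0.48, adjusted p = 0.968; 0.13 without pair 2), and a dimmer probe set gave -0.53, or -0.08 without pair 2. In none of the 3 did the groups separate.

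**Figure D3:**
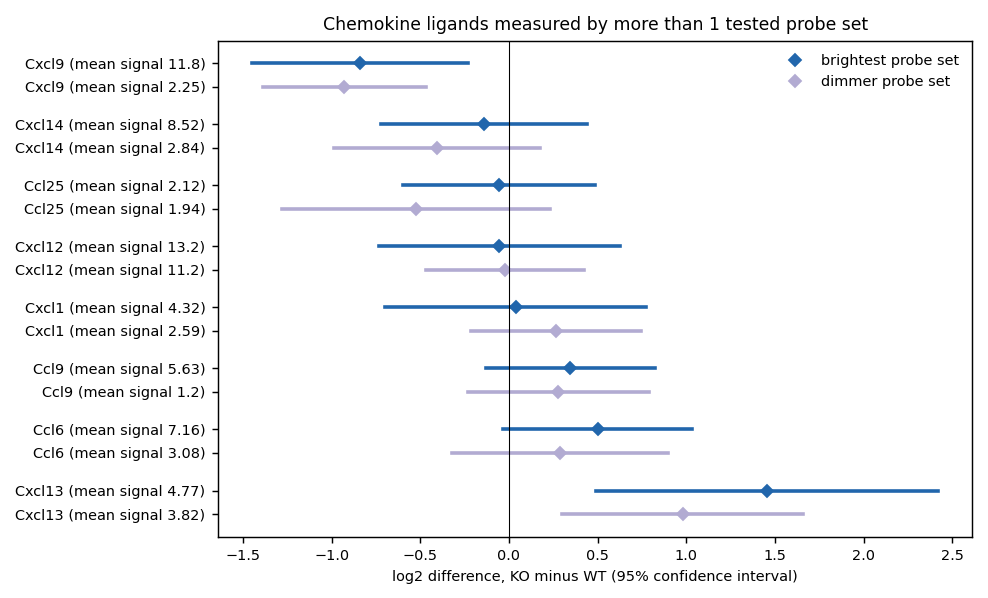
Log2 differences, KO minus WT, with 95% confidence intervals, of the 8 ligands measured by more than 1 tested probe set, named with the mean signal of the probe set. The fitted direction was the same in the 2 probe sets of each gene, from Cxcl9 at -0.84 and -0.93 to Cxcl13 at 1.45 and 0.98.

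The 14 ligands below the signal minimum were Ccl1, Ccl3, Ccl5, Ccl7, Ccl17, Ccl20, Ccl22, Ccl24, Cxcl2, Cxcl3, Cxcl5, Cxcl11, Cxcl15 and Xcl1. Their mean signals lay between 0.110 and 0.767, and 32 of their 84 single signals were below the floor of 0.25. Just inside the minimum lay Ccl12 at a mean of 1.13, and just outside it Ccl7 at 0.767 and Ccl24 at 0.766. In 5 of the 14 at least 1 array exceeded its median, up to 1.41 for Cxcl2 in WT 1. The signals of Ccl22, a ligand of CCR4 made by dendritic cells and macrophages, were 0.463, 0.806 and 0.499 in the KO animals, against 0.402, 0.291 and 0.291 in their WT littermates, with no overlap at these low signals.

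Along the chromosomes, ligands that lie next to each other did not always share a direction. On chromosome 5, Cxcl9 and Cxcl10 are neighbours and were both lower in each pair, while Cxcl13 on the same chromosome was higher. On chromosome 11, the order Ccl2, Ccl7, Ccl11, Ccl12 and Ccl8 ran from a log2 difference of -0.58 for Ccl2 to 1.33 for Ccl8, with Ccl11 and Ccl12 at 0.50 and 0.40. In the neighbouring group on chromosome 11, Ccl9, Ccl6 and Ccl4 gave 0.35, 0.50 and 0.04.

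The receptors of these ligands were read in the same fit. Beside the counts of this and later lists, 18.4% of all tested probe sets were lower and 12.4% higher in all 3 pairs. Of 23 chemokine receptor genes, 21 had a probe set and 8 were tested, and 0 passed in either direction. Their median log2 difference was 0.04 (0.14 without pair 2 and -0.21 without pair 1), with Ccr2 lower and Ackr1 and Ackr2 higher in all 3 pairs. Cxcr3, the receptor of Cxcl9 and Cxcl10, read 1.22, 0.986 and 1.45 in the KO animals, against 1.40, 1.12 and 0.990 in their WT littermates, a difference of 0.05 (95% interval -0.50 to 0.60, adjusted p = 0.970; 0.17 without pair 2 and -0.19 without pair 3). Ccr2, the receptor of Ccl2 and Ccl12, read 1.40, 2.47 and 2.40 in KO mice and 1.63, 2.51 and 2.81 in their WT littermates. Its difference was -0.16 (adjusted p = 0.865), and -0.22 without pair 2. Neither separated the groups.

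Ackr1, the atypical receptor of venules that binds many inflammatory CC and CXC ligands without signalling, had the largest difference among the 8 tested receptors. It read 3.57, 3.22 and 3.87 in the KO animals, against 2.29, 1.15 and 1.60 in their WT littermates, with all KO signals above all WT signals. The log2 difference was 1.13 (95% interval 0.58 to 1.69, adjusted p = 0.396), 0.96 without pair 2, and 1.38 without pair 1, where it passed (adjusted p = 0.0243). Ackr3, which scavenges Cxcl12, read 127, 40.2 and 42.8 in KO mice, with 114, 82.0 and 50.7 in the WT mice of the same pairs, with both animals of pair 1 highest and a difference of -0.37 (adjusted p = 0.740; -0.04 without pair 2). Cxcr4, Cxcr6, Cx3cr1, Ccr7 and Ccr3 were too dim to test.

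Chemokines are trimmed by proteases and held on cell surfaces by proteoglycans. Of 10 genes listed for these roles, 8 were tested and 0 passed. Their median was 0.47 (0.42 without pair 2 and 0.29 without pair 1). In all 3 pairs 4 were higher (against 12.4% of all tested probe sets) and 0 lower (against 18.4%). The 4 were Dpp4, Mmp9, Mmp14 and Sdc4. Dpp4, the membrane peptidase that clips the first residues of CXCL10 and other ligands, was named after its values were seen. It read 2.08, 2.44 and 1.77 in the KO animals, against 1.09, 0.897 and 0.770 in their WT littermates, without overlap. Its log2 difference was 1.20 (95% interval 0.71 to 1.68, adjusted p = 0.396), 1.07 without pair 2, and 1.33 without pair 1, where it passed (adjusted p = 0.0315).

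**Figure D4:**
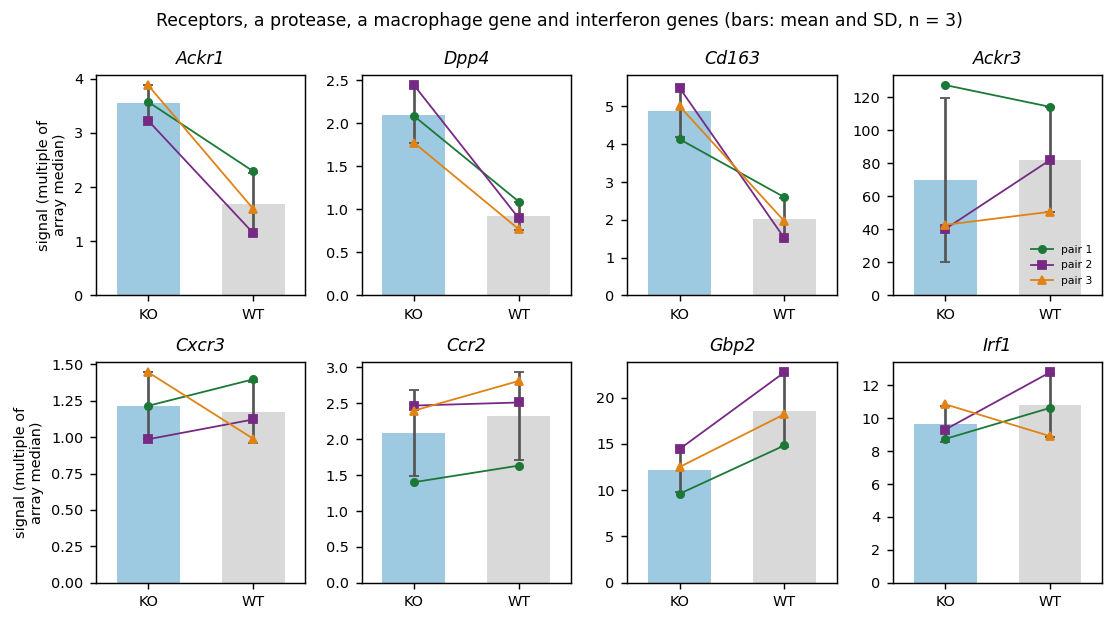
Signals of the receptors Ackr1, Ackr3, Cxcr3 and Ccr2, the peptidase gene Dpp4, the macrophage gene Cd163 and the interferon genes Gbp2 and Irf1, as multiples of the array median on linear axes that start at 0, with KO left of WT. Lines join littermates, and bars are means with SD (n = 3). Ackr1, Dpp4 and Cd163 lie higher in KO without overlap and Gbp2 lower without overlap, while Cxcr3, Ccr2, Ackr3 and Irf1 overlap.

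Upstream of the CXCR3 ligands, 13 interferon-gamma pathway genes were listed and 8 tested. None passed, 2 were lower and 1 higher in all 3 pairs, and the median was -0.16 (0.01 without pair 2). Ifng itself was too dim to test, at 0.490, 0.641 and 0.0253 in the KO animals, against 0.0499, 0.115 and 0.237 in their WT littermates. Irf1, a transcription factor induced by interferon, read 8.74, 9.31 and 10.9 in KO mice, with 10.6, 12.8 and 8.91 in the WT mice of the same pairs, a difference of -0.15 (adjusted p = 0.897; 0.001 without pair 2). Gbp2, an interferon-induced GTPase named after its values were seen, was the 1 tested gene of the list whose groups did not overlap. Of all tested probe sets, 7.16% were lower in KO without overlap. The Gbp2 probe set carries a suffix of the array maker for probes that can match more than 1 transcript. It read 9.61, 14.4 and 12.5 in the KO animals, against 14.8, 22.7 and 18.2 in their WT littermates, a difference of -0.61 (95% interval -1.05 to -0.16, adjusted p = 0.483; -0.58 without pair 2).

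NF-kB induces many CC ligands, and 15 genes of that pathway were listed and 11 tested, with 0 passing, 1 lower and 1 higher in all 3 pairs and a median of -0.12 (0.01 without pair 2). Nfkbia, the inhibitor that NF-kB itself induces, read 153, 80.5 and 101 in the KO animals, against 86.1, 92.1 and 101 in their WT littermates. KO 1 was highest, and the difference was 0.21 (adjusted p = 0.864), 0.42 without pair 2 and -0.09 without pair 1. Tnf was too dim to test.

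Cell type markers were read beside these values, and their part in the ligand differences was not tested. All 12 macrophage markers had a probe set and 11 were tested, with 0 passing. Their summed signal was 139.8 to 155.4 in KO and 118.9 to 154.8 in WT. The median log2 difference was 0.20 (0.35 without pair 2 and 0.02 without pair 1). Cd163, Mrc1, C1qa and Cd14 were higher in all 3 pairs (against 12.4% of all tested probe sets) and Cd68 lower (against 18.4%). Cd163, the haemoglobin scavenger receptor of resident macrophages, chosen after its values were seen, read 4.13, 5.49 and 5.01 in the KO animals, against 2.60, 1.52 and 1.96 in their WT littermates. Its difference was 1.29 (95% interval 0.66 to 1.93, adjusted p = 0.396), 1.01 without pair 2, and 1.60 without pair 1, where it passed (adjusted p = 0.00774). The pan-macrophage gene Adgre1 gave -0.02 (0.16 without pair 2 and -0.03 without pair 1). Csf1r, the receptor of macrophage growth factor, gave 0.20 (0.37 without pair 2 and 0.02 without pair 1).

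Most markers of the cells that CXCR3 and CXCR5 ligands attract were below the signal minimum. Of 8 T cell markers with a probe set only Cd8a was tested. Its difference was 0.05 (95% interval -0.53 to 0.64, adjusted p = 0.973), and -0.04 without pair 2. The Cd8a probe set carries a suffix for probes that can match more than 1 transcript, so it may not read T cells alone. Its mean signal was 2.83, against 0.254 for Cd8b1, and Cd3d and Cd4 lay below 0.25 on all 6 arrays. The list summed to 3.26 to 5.99 in KO and 4.18 to 4.81 in WT. Of 4 natural killer and 5 B cell markers, 0 were bright enough to test, with sums of 1.49 to 1.61 in KO and 1.10 to 1.61 in WT for natural killer cells and 2.83 to 3.25 in KO and 2.52 to 4.26 in WT for B cells. The lymph node genes Glycam1 and Madcam1 were also below the minimum.

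Among the other lists, neutrophil markers summed to 10.3 to 15.2 in KO and 3.96 to 11.6 in WT. Over 2 tested genes the median log2 difference was 0.835 (0.78 without pair 2). S100a9 was higher in all 3 pairs and S100a8 in 2 of 3. Mast cell markers summed to 10.6 to 16.9 in KO and 6.74 to 14.8 in WT. Their median over 3 tested genes was 0.66 (0.25 without pair 2). Cpa3 was higher in all 3 pairs, Mcpt4 was higher in 2 of 3, and Kit was lower in 2 of 3 at -0.13. Dendritic cell markers summed to 7.47 to 8.20 in KO and 6.99 to 8.03 in WT. Their median over 3 tested genes was 0.31 (0.31 without pair 2). Zbtb46 and Cd209a were higher in all 3 pairs, and Flt3 was lower in 2 of 3. Lymphatic and lymph node markers summed to 11.3 to 13.9 in KO and 8.50 to 10.5 in WT. Their median over 3 tested genes was 0.70 (0.37 without pair 2). Pdpn was higher in all 3 pairs, Lyve1 was higher in 2 of 3, and Flt4 was lower in 2 of 3 at -0.11. Endothelial markers summed to 44.5 to 48.2 in KO and 47.1 to 64.2 in WT, with the highest sum in WT 2. Their median was -0.29, and -0.13 without pair 2. Of the 6, 4 were lower in all 3 pairs, namely Cdh5, Kdr, Tie1 and Emcn (against 18.4% of all tested probe sets). Fibroblast markers summed to 175.8 to 246.4 in KO and 177.6 to 206.3 in WT, with a median of 0.17. It was 0.30 without pair 2 and -0.01 without pair 1. Col1a1 and Col1a2 were higher and Pdgfrb lower in all 3 pairs. In all these lists 0 genes passed the test.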

How the data were processed

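Total RNA from BAT of 3 KO and 3 WT mice had been hybridised to Affymetrix arrays. The authors deposited 1 linear intensity per probe set, made with GCOS per the labels, with version, algorithm and scaling target not given in the sources used here. Median normalization by the authors was not in the deposited intensity values, since array medians differed.

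After removal of 64 control probe sets, 45037 were scaled to the array median, floored at 0.25 and put on a log2 scale. The 22356 with a mean above 1 entered limma 3.58.1 (lmFit and eBayes, R 4.3.3) on genotype and littermate pair, adjusted by Benjamini-Hochberg over all of them at 0.05. The design text of the series names the numbered animals as littermates, which is the basis of the block. Deviations from the group means had correlations of 0.446, 0.0847 and 0.160 between littermates and of -0.359 to 0.281 between other KO and WT arrays, so that pair 1 alone lay above all of these. Gene names came from a platform annotation (34945 probe sets with 1 symbol, 932 with several, 9160 unlisted), checked by gene identifier against GRCm38.p6 (34741 matched, 0 renamed). Promoter windows came from RefSeq, with 14 of the 19 tested ligands matched.

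The members, lists and tests were chosen with earlier results of these data known. The rule named every tested ligand with its 6 signals, the dimmer ligands by range, and 15 receptors and pathway genes whatever their values, with Dpp4, Gbp2, Cd163 and the 6 signals of Cxcl11, Ccl5 and Ccl22 added after their values were seen. Marker lists are described by sums and counts. The fit was tested on simulated data. Alternatives were other scalings, floors, filters, a variance trend, no pair block, averaged probe sets and each pair left out. The number of arrays limits precision.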

Additional observations from a re-analysis of the deposited data

How the results depend on the processing

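With limma, 0 of the 19 tested ligands passed as reported, against 2 with an intensity trend and robust prior (Cxcl10 at -2.05, adjusted p = 0.00390, and Cxcl9 at -0.84, adjusted p = 0.0288) and 0 to 1 with a pair left out (Cxcl10 at -1.67 without pair 1). Over all probe sets 0 passed, with 1 under a pseudocount in place of the floor, 40 with a mean signal above 2, 311 with the trend and 0 to 255 with a pair left out (255 without pair 1). The companion lists had 0 passing, 2 with the trend (Ackr1 and Cd163) and 0 to 4 with a pair left out (Ackr1, Dpp4, Cd163 and Lyve1 without pair 1). Without the pair as a block 0 ligands, 0 list genes and 0 probe sets passed, and the block changed no call. With a mean signal above 2 only 12 ligands were tested, so that 1 was lower in all 3 pairs and 0 at 1.5-fold. With a pair left out, 5 to 7 were lower in both remaining pairs, 1 to 2 at 1.5-fold lower and 0 to 1 at 1.5-fold higher, and 1 was 1.5-fold higher after quantile normalization. Without a filter, over 33 ligands, 5 were lower and 9 higher in all 3 pairs, and with signals as deposited 4 were higher.

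The median difference of the ligands was -0.04 as reported, 0.019 as deposited, 0.023 after quantile normalization and -0.16 to 0.13 with a pair left out. Small differences changed sign. As deposited, Ccl25 was 0.0046, Cxcl12 0.0079 and Cxcl17 0.019, and Cxcl12 was 0.023 after quantile normalization. With a pair left out, Ccl25 ran from -0.27 to 0.13, Ccl4 from -0.060 to 0.21, Cxcl1 from -0.31 to 0.45, Cxcl12 from -0.43 to 0.23, Cxcl14 from -0.35 to 0.13 and Cxcl17 from -0.30 to 0.20. These cover all 13 changes of sign, and 205 other values kept sign and side of the threshold. The cause was not tested.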

Other observations

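Probe sets that name a chemokine ligand together with other symbols, 4 in all, stand outside the set above. A probe set for Ccl21, a lymph node ligand of CCR7, read 1.69, 0.267 and 3.19 in the KO animals, against 2.95, 0.111 and 2.60 in their WT littermates, with both animals of pair 2 far below the other pairs and a log2 difference of -0.14 (limma adjusted p = 0.928; -0.25 without pair 2 and 0.20 without pair 1). A probe set for Ccl19, the other CCR7 ligand, had a mean signal of 0.564 and was not tested. Of 2 shared probe sets for Ccl27a and Ccl27b, 1 was lower in KO in 3 of 3 pairs without overlap, at 8.80, 7.46 and 7.84 in KO mice, with 10.4, 11.2 and 8.89 in the WT mice of the same pairs, a difference of -0.34 (limma adjusted p = 0.686). The other gave 0.05 (limma adjusted p = 0.976), so the probe sets of this gene did not share a direction.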
